A study of Mus musculus with 18 samples.

Results

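The genes of the mitochondrial ribosome were followed through aging of mouse skeletal muscle. They were chosen by name, as every gene of the RNA-seq table whose symbol starts with Mrpl or Mrps followed by a digit, and 76 of the 23420 genes in the table matched, of which 47 encode proteins named for the large subunit (Mrpl) and 29 encode proteins named for the small subunit (Mrps). All 76 had a mean of at least 10 normalized counts and entered the test with 13178 genes in all. The RNA came from hindlimb muscle of female C57BL/6J mice with no treatment named in the labels, that were 2 months (2-m, young), 20 months (20-m, aged) or 28 months (28-m, superaged) old, with 3 mice per age and 1 poly-A library per mouse. Methylated DNA of the same muscles, and of splenic T cells, was enriched on a protein domain that binds methylated CpGs and then sequenced (MBD-seq), with the DNA of the 3 mice of an age pooled beforehand. A normalized count is the number of reads on a gene divided by 1 size factor per library, and a change is called when the adjusted p from limma over all genes tested is under 0.05.

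The mitochondrial ribosome (mitoribosome) sits in the matrix and translates the few messenger RNAs encoded by mitochondrial DNA, all of which code for subunits of the oxidative phosphorylation (OXPHOS) chain. Its ribosomal RNAs come from mitochondrial DNA, whereas every one of its proteins is encoded in the nucleus, made in the cytosol and imported. Part of these proteins have homologues in the bacterial ribosome and the rest were added in the mitochondrial lineage. Muscle fibres hold many mitochondria, and slow oxidative fibres hold more than fast glycolytic fibres. Nuclear genes for mitochondrial proteins are known targets of the factors NRF1, GABP (an ETS factor) and YY1.

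The start regions of the genes whose RNA was lower at both old ages are shown here because they are the sequences from which those transcripts begin. A 300-base window, 250 bases before to 50 bases after the annotated start (RefSeq, GRCm38.p6), was at hand for 67 of the 76 genes. It covers 4 of the 5 genes called lower at both ages, Mrpl27 (chr11:94653541-94653840, plus strand), Mrpl37 (chr4:107066817-107067116, minus strand), Mrpl42 (chr10:95501900-95502199, minus strand) and Mrps15 (chr4:126046678-126046977, plus strand). The windows are written 5′ to 3′ along the gene, with capitals for matches on either strand to 1 of 5 motifs, namely NRF1 (GCATGCGC), ETS (CCGGAAGT), YY1 (AAGATGGC), SP (GGGCGGG) and E-box (CACGTG).
Mrpl27: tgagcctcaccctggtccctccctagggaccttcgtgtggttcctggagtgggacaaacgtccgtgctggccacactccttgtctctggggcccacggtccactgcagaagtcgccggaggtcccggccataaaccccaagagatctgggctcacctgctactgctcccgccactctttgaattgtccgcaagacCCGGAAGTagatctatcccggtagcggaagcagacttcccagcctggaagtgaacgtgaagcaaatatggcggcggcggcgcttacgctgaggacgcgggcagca
Mrpl37: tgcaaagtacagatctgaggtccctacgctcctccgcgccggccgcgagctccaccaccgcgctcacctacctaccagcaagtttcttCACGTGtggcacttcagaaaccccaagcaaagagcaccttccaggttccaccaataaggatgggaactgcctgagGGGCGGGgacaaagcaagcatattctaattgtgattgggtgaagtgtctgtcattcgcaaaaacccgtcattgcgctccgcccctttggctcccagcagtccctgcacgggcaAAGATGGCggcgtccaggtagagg
Mrpl42: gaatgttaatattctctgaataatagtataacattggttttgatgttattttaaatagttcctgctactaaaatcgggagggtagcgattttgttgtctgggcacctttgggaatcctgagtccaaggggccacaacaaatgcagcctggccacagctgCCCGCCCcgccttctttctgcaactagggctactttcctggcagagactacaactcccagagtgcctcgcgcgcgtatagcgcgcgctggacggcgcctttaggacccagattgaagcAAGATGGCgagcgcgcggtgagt
Mrps15: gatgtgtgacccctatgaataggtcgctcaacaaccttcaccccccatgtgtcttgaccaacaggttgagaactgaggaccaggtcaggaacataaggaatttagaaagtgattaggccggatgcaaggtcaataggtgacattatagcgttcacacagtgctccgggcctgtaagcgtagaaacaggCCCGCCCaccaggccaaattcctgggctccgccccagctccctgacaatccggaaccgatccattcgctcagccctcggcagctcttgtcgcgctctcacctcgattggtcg
The Mrpl27 window held an ETS match whose first base lay 55 bases before the start. Mrpl37 and Mrpl42 each held a YY1 match just after the start, at 26 and 27 bases, and an SP match 87 and 91 bases before it, and Mrpl37 also held an E-box 162 bases before the start. The Mrps15 window held an SP match 62 bases before the start. No motif was shared by all 4 windows.

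A further window is shown because it spans the starts of a large-subunit gene and a small-subunit gene. Mrpl46, on the minus strand, and Mrps11, on the plus strand, start 42 bp apart on chromosome 7, and the window of Mrpl46 (chr7:78783040-78783339, minus strand) reads as follows, with an SP match 32 bases before the Mrpl46 start in capitals.
Mrpl46: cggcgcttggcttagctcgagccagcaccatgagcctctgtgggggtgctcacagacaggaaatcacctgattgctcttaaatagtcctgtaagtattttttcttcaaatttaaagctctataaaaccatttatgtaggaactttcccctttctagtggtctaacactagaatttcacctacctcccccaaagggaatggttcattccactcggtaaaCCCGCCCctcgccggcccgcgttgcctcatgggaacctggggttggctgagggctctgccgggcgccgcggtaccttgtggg
Such head-to-head arrangements were common in the group. Of the 76 genes, 25 (32.9%) had a divergent protein-coding start within 1000 bp, with up to 200 bp of overlap allowed, beside 1420 of 12003 tested protein-coding genes (11.8%). The partners were not sorted by function, and those named next were picked for a role in mitochondria. Others had other roles, such as the DNA repair gene Eme1 next to Mrpl27. Mrps12 started 147 bp from Sars2, the mitochondrial seryl-tRNA synthetase, Mrpl47 started 308 bp from Ndufb5, a complex I subunit, and Mrps27 started 108 bp from Ptcd2, a mitochondrial RNA-processing protein.

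The motifs were counted per gene over windows of the same length, and a gene with several windows counted when any of them held a match. The YY1 letters were in 12 of the 67 genes (17.9%) and in 3.19% of all 27025 genes with a window, or 5.01% of the tested genes with one. The ETS letters were also in 12 of 67 (17.9%), beside 4.31% and 8.52%. The NRF1 letters were in 8 of 67 (11.9%), beside 3.05% and 5.87%. The SP letters were in 28 of 67 (41.8%), which lay between the 27.9% of all genes and the 51.7% of tested genes. The E-box was in 5 of 67 (7.46%), beside 8.09% and 11.8%. By subunit, NRF1 letters were in 7 of 41 large-subunit and 1 of 26 small-subunit genes, and YY1 letters were in 6 of each. These counts describe letters in a window and are not binding data.

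The libraries held 20203800 to 71115200 reads on genes, of which the 76 genes took 0.168% to 0.249%, that is 43880 to 161275 reads. The least-covered of the 76 genes in a library had 162 to 710 reads. The markers of the labelled tissue were abundant, since the summed normalized counts of 10 muscle fibre genes were 5747510 to 7353050 in the 9 libraries and the 4 T-cell markers together reached at most 28.3. The composition of the muscle libraries moved with age. All 7 slow-fibre markers were called higher at both old ages, with summed counts of 12890 to 115123 in 2-m muscle, 163266 to 289784 in 20-m muscle and 202374 to 255812 in 28-m muscle, and 3 of 5 fibroblast and matrix markers, the collagens Col1a1, Col1a2 and Col3a1, were called lower at both, with summed counts of 50146 to 104713 in 2-m muscle against 20862 to 28378 in the older muscles. Adipocyte markers summed to 6998 to 10576 in 2-m muscle, 4782 to 5305 in 20-m muscle and 4649 to 6777 in 28-m muscle, with 3 of 5 called lower at 20 months and 1 at 28 months. Of the 10 muscle fibre markers, 2 were called lower at both ages, Pvalb (log2 fold changes -0.85 and -1.03) and Mylpf (-0.66 and -0.46), and 8 were not called, among them the fast myosins Myh4 (0.00075 and -0.29) and Myh1 (0.19 and 0.06). Marrow granulocyte markers summed to 2860 in 1 library (2-m replicate 1) and to at most 56.4 in the other 8. In the 3 libraries numbered 3, the 10 most abundant genes took 29.6% to 32.5% of the reads, against 43.1% to 48.4% in the other 6. The part of these differences in the values of the mitoribosome genes was not tested, and in bulk muscle fewer fibres of a type and less RNA per fibre cannot be told apart.

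All 76 genes were detected in every library. Over the 9 libraries the mean normalized count per gene ranged from 393 to 5300, with a median of 1216 for the large subunit and 885 for the small subunit. The replicates of an age were close, with a median within-age SD of 0.121 on the log2 scale for the 76 genes, beside 0.182 for all genes tested. When counts were divided by the RefSeq exon length, so that genes can be set against each other, the median was 841 per kb for the large and 716 per kb for the small subunit. Mrpl42, a large-subunit protein with no bacterial homologue, had the highest level per length of all 76 (7693 per kb), and its values ran from 6361 to 9253 per kb over the libraries. Next were Mrps21, a small-subunit protein with a bacterial homologue (4290 per kb, range 3316 to 5007), and then the large-subunit genes Mrpl33 (3395 per kb, range 3054 to 3853) and Mrpl30 (3246 per kb, range 2946 to 3645), whose ranges overlapped. After Mrps21, the highest in the small subunit were Mrps28 (1763 per kb) and Mrps18a (1736 per kb). The lowest mean counts were those of Mrps6 (393) and Mrps33 (394) in the small subunit and of Mrpl47 (399) and Mrpl40 (501) in the large. The lengths are those of all exons of a gene's RefSeq transcripts, so a gene with a long exon that muscle does not use would have its level per length understated.

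The balance of the subunits was then compared across ages. The summed level per length of the large-subunit genes was 2.11, 2.12 and 2.18 times that of the small-subunit genes in the 3 libraries of 2-m muscle. In 20-m muscle it stood at 2.03, 2.10 and 2.10 times, and in 28-m muscle at 2.08, 2.14 and 2.12 times. The 20-m libraries lay just below the 2-m libraries in this ratio, and the 28-m libraries overlapped with both. On the log2 scale of normalized counts, the mean over large-subunit genes exceeded that over small-subunit genes by 0.35 ± 0.031 (SD, n = 3) at 2 months, 0.34 ± 0.0021 at 20 months and 0.33 ± 0.024 at 28 months. Structures of the mammalian mitoribosome place Mrps18a and Mrps30 in the large subunit, and Mrps36 is now known as a component of the oxoglutarate dehydrogenase complex. With the genes sorted that way, the ratio was 2.47 to 2.60 over the libraries and the 20-m libraries overlapped with those of 2-m muscle.

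The mean level of the group was lower in the older muscles. For each library, the mean of log2(normalized count + 1) over the 76 genes was 10.09, 10.22 and 10.12 in 2-m muscle. It was 9.98, 10.02 and 9.97 in 20-m muscle, where all 3 libraries lay below all 3 of 2-m muscle. It was 9.99, 10.11 and 9.92 in 28-m muscle, where replicate 2 lay above replicate 1 of 2-m muscle, so these ages overlapped. The age means were 10.14 ± 0.066, 9.99 ± 0.028 and 10.004 ± 0.096 (SD, n = 3 each). On other scales the 20-m and 2-m libraries overlapped. The share of reads on genes was 0.176% to 0.227% in 20-m and 0.185% to 0.249% in 2-m libraries. With the mean over all genes tested subtracted, 20-m replicate 2 (1.420) lay just above 2-m replicate 1 (1.418). Of the 76 genes, 33 had their highest value in replicate 2 of 2-m muscle and 29 their lowest in replicate 3 of 28-m muscle. Replicate 2 also had the highest slow-fibre sum of the 2-m libraries (115123, against 12890 and 28041). The plot of subunit means gives the values of each subunit.

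**Figure D1:**
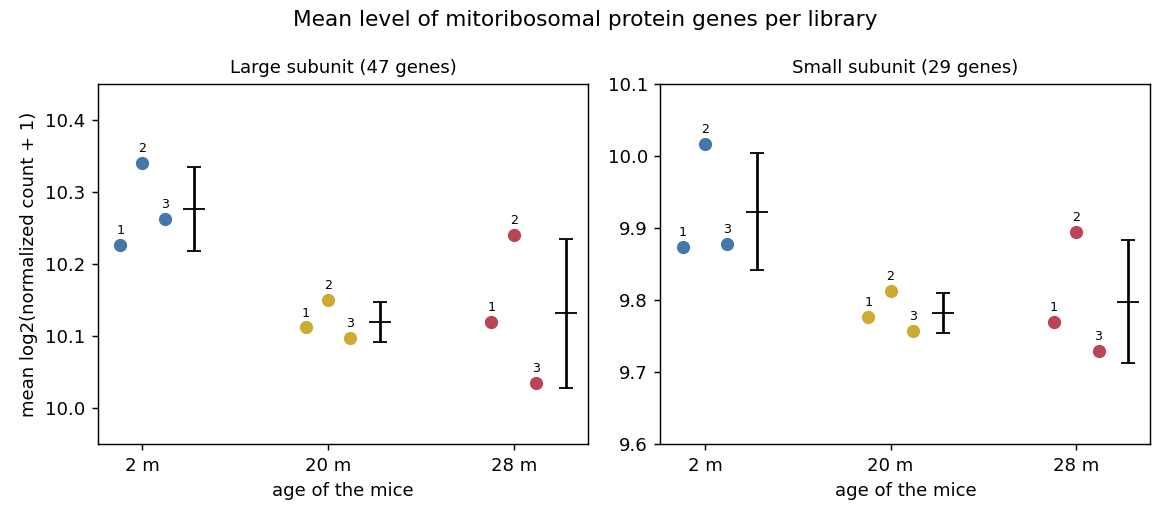
Mean of log2(normalized count + 1) over the large-subunit (left) and small-subunit (right) genes in each library, by age of the mice, with the replicate number above each point and the mean and SD of 3 libraries as a bar. In both panels the 20-m libraries lie below all 2-m libraries, whereas replicate 2 of 28-m muscle lies within the 2-m range, and the vertical axes do not start at 0.

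The first comparison asked which mitoribosome genes differed between 20-m and 2-m muscle. In 20-m muscle 9 genes were called lower and 0 were called higher. The 9 were Mrpl27, Mrpl19, Mrpl4, Mrpl42, Mrpl43 and Mrpl37 of the large subunit and Mrps28, Mrps14 and Mrps15 of the small subunit, with log2 fold changes from -0.25 to -0.56. They make up 11.8% of the 76, beside 7.13% of all genes tested that were called lower, and the 0 called higher stand beside 9.42% of all genes. At an unadjusted p under 0.05, 19 were lower (25%, beside 14.8% of all genes) and 0 higher (beside 16.8%). Of the 76 log2 fold changes 65 were below 0, most of them small and not past the threshold, and their median was -0.16, beside -0.02 for all genes tested. The 3 libraries of 20-m muscle lay below the 3 of 2-m muscle for 28 genes (36.8%, beside 17.6% of all genes) and above them for 0 (beside 18.4%).

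Genes of both subunits were called. Of the large-subunit genes 6 of 47 were called lower (12.8%, beside 7.13% of all genes tested), 40 were below 0 and the median was -0.16. Of the small-subunit genes 3 of 29 were called lower (10.3%), 25 were below 0 and the median was -0.15. The difference between the subunits was not tested, because genes are not replicates of an age.

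Mrpl27, a protein of the large subunit near its peptidyl transferase centre, had the largest fall. Its normalized counts were 838, 895 and 724 in 2-m muscle, 549, 518 and 591 in 20-m muscle, and 497, 699 and 570 in 28-m muscle. Every library of the older ages lay below every 2-m library. The log2 fold change was -0.56 (SE 0.133, adjusted p = 0.0132) at 20 months and -0.48 (adjusted p = 0.03) at 28 months. Mrpl27 starts 48 bp from Eme1, a DNA repair gene on the opposite strand.

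Mrps28, a small-subunit protein related to bacterial S1, had counts of 1623, 1582 and 1366 in 2-m muscle, 1218, 1227 and 1105 in 20-m muscle, and 1089, 1244 and 1004 in 28-m muscle. Its groups did not overlap at either age. The log2 fold change was -0.36 (SE 0.104, adjusted p = 0.0321) at 20 months and -0.45 (adjusted p = 0.0124) at 28 months.

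Mrpl42, the most abundant of the 76, had counts of 5960, 6375 and 6215 in 2-m muscle, 4835, 5560 and 4679 in 20-m muscle, and 4533, 5162 and 4382 in 28-m muscle. All older libraries were again below all young ones. The log2 fold change was -0.30 (SE 0.0876, adjusted p = 0.0334) at 20 months and -0.40 (adjusted p = 0.00997) at 28 months, and the latter call held when any single library was left out (adjusted p up to 0.0479).

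Mrpl37, another large-subunit protein of mitochondrial origin, was tight within each age. Its counts were 2947, 2800 and 2753 in 2-m muscle, 2279, 2344 and 2354 in 20-m muscle, and 2296, 2476 and 2287 in 28-m muscle. The log2 fold change was -0.28 (SE 0.072, adjusted p = 0.0183) at 20 months and -0.27 (adjusted p = 0.027) at 28 months, with no overlap at either age.

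Mrps15, a small-subunit protein that binds ribosomal RNA, had counts of 1685, 1605 and 1645 in 2-m muscle, 1390, 1414 and 1333 in 20-m muscle, and 1251, 1373 and 1268 in 28-m muscle. Its groups did not overlap at either age. The log2 fold change was -0.25 (SE 0.0783, adjusted p = 0.043) at 20 months and -0.34 (adjusted p = 0.0124) at 28 months.

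The other 4 genes were called lower at 20 months only. Mrpl19, the counterpart of bacterial L19, had counts of 828 to 856 in the young muscles, 607 to 689 at 20 months and 662 to 766 at 28 months, with a log2 fold change of -0.37 (adjusted p = 0.0222) at 20 months and -0.21 (adjusted p = 0.175) at 28 months. Mrpl4, which lines the exit tunnel, fell by 0.32 on the log2 scale at 20 months (adjusted p = 0.0249) and had -0.28 at 28 months (adjusted p = 0.051), just short of the threshold. Mrpl43 fell by 0.30 at 20 months (adjusted p = 0.0442) and had -0.17 at 28 months (adjusted p = 0.267). Mrps14 fell by 0.29 at 20 months (adjusted p = 0.0497) and had -0.22 at 28 months (adjusted p = 0.141). None of these 4 passed the threshold between 28 and 20 months, where the lowest adjusted p was that of Mrpl19 (0.616). Mrpl19 shares 1145 exon bases with Gcfc2, and Mrpl43 shares 385 with Twnk, both on the opposite strand. How the counting treated strand is not given in the sources used here, so reads on the shared bases cannot be assigned.

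**Figure D2:**
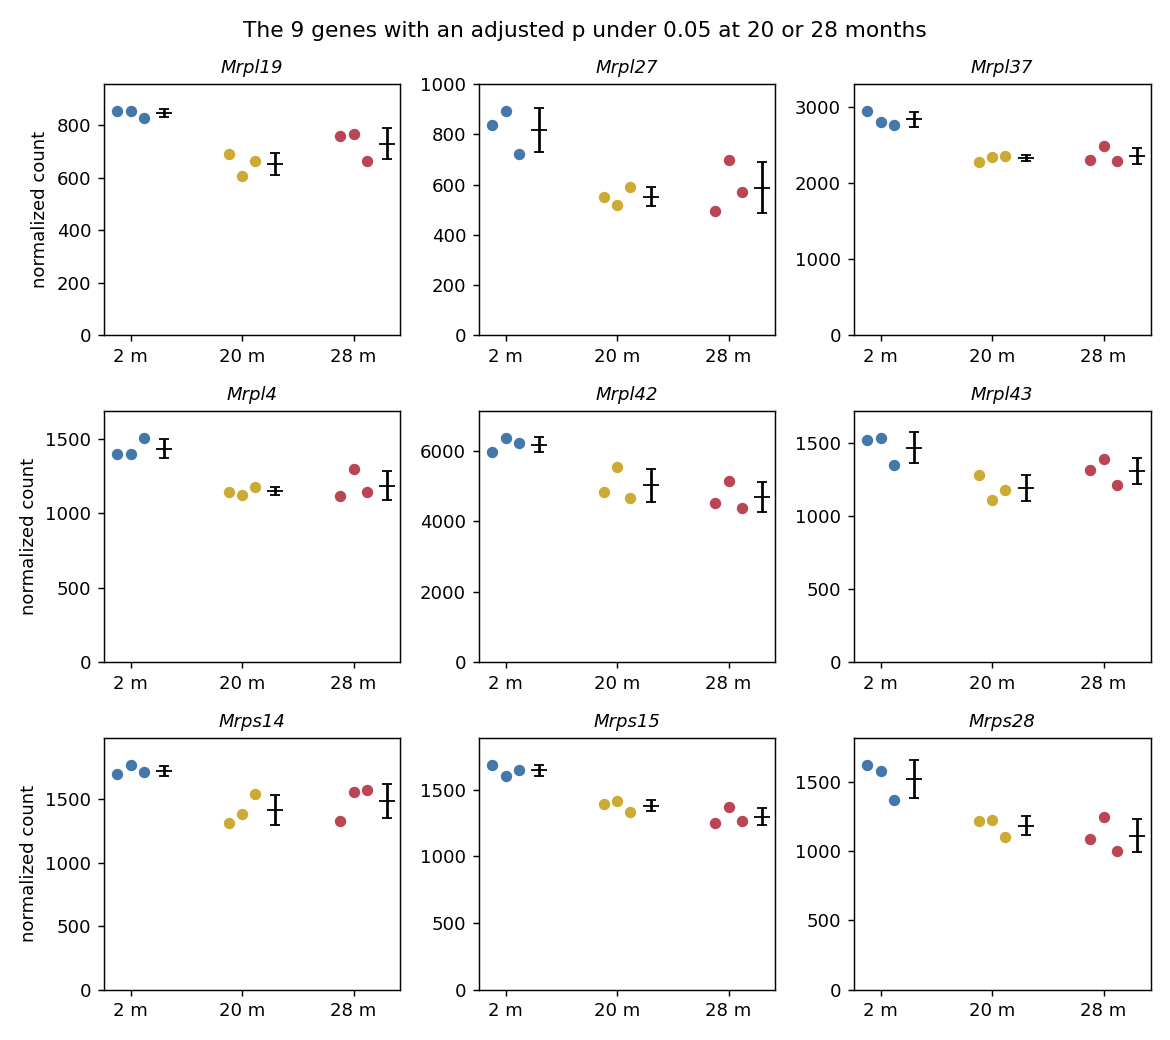
Normalized count in each library for the 9 genes with an adjusted p under 0.05 at 20 or 28 months, by age, with the mean and SD of 3 libraries as a bar and axes from 0. For Mrpl27, Mrpl37, Mrpl42, Mrps15 and Mrps28 every 20-m and 28-m library lies below every 2-m library.

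These calls depended on the scaling and on single libraries. When libraries were rescaled to equal sums, 0 genes were called lower at either old age, while the medians stayed at -0.14 and -0.10 and calls over all genes at 20 months fell to 354 higher and 232 lower (1.76%), and without the 3 libraries numbered 3 the calls were 1 (Mrpl27, 1.32% beside 3.16% of all genes) at 20 months and 1 (Mrps28, beside 2.37%) at 28 months. Leaving out 1 library gave, at 20 months, 1 call without 20-m replicate 1 or 2 (1.32%, beside 3.55% and 4.13% of all genes), 2 without 2-m replicate 1 (2.63%, beside 4.29%), 4 without 2-m replicate 2 or 20-m replicate 3 (5.26%, beside 6.18% and 5.22%), and 5 without 2-m replicate 3 (6.58%, beside 5.24%). The share called lower was therefore above that of all genes with the 9 libraries, and below it under both these settings and in 4 of these 6 omissions. Without one of the 28-m libraries 7 to 10 were called (9.21% to 13.2%, beside 6.90% to 7.27% of all genes). Other fits kept it above, with 15 calls (19.7%, beside 9.18%) under a batch term for the libraries numbered 3, 12 (15.8%, beside 8.55%) by DESeq2 and 10 (13.2%, beside 7.36%) by edgeR. Among the 9 genes, Mrpl27 and Mrpl19 lost the 20-month call in the fewest of all 9 omissions (2 each, adjusted p up to 0.0564 and 0.0937) and Mrps15 in the most (8, adjusted p up to 0.121).

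The second comparison set 28-m against 2-m muscle and shared its 2-m libraries with the first. Here 5 genes were called lower, Mrpl27, Mrpl37, Mrpl42, Mrps15 and Mrps28, and 0 were called higher. All 5 were also called at 20 months. They are 6.58% of the 76, near the 6.24% of all genes tested that were called lower, whereas the 0 called higher stand beside 7.53%. With a batch term for the libraries numbered 3, 10 were called lower (13.2%, beside 8.48% of all genes), so that reading depended on the fit. At an unadjusted p under 0.05, 18 were lower (23.7%, beside 13.5% of all genes) and 0 higher (beside 14.6%). The median log2 fold change was -0.14, beside -0.01 for all genes tested, and 65 of 76 were below 0. Without 28-m replicate 3 this median was -0.08. The 28-m libraries lay below the 2-m libraries for 23 genes (30.3%, beside 15% of all genes) and above them for 0 (beside 15.3%).

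By subunit, 3 of 47 large-subunit genes (6.38%) and 2 of 29 small-subunit genes (6.90%) were called lower, near the 6.24% of all genes tested. The medians were -0.15 and -0.10. The difference of the medians was -0.05 and moved to -0.00423 without 2-m replicate 3. Left out singly, 28-m replicate 2 raised the calls to 11 (14.5%, beside 6.37% of all genes), and 2-m replicate 1, 28-m replicate 1 and 28-m replicate 3 each lowered them to 2 (2.63%, beside 3.76%, 3.35% and 3.93%), so the share lay above or below that of all genes depending on the library left out. Mrpl42 kept its call in all 9 omissions, whereas Mrps15 lost it in 1, Mrps28 in 2, Mrpl37 in 3 and Mrpl27 in 4 (adjusted p up to 0.127).

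Side by side, 60 of the 76 genes (78.9%, beside 41.8% of all genes tested) were below 0 at both old ages, 6 were above 0 at both and 10 differed in sign. The 6 were Mrpl14, Mrpl24, Mrpl28, Mrpl40, Mrps30 and Mrps34, and none was called. For 15 genes (19.7%, beside 9.599% of all genes tested) all 6 older libraries lay below all 3 young ones. Beside the 5 called at both ages these were Mrpl4, Mrpl15, Mrpl17, Mrpl19, Mrpl22, Mrpl34, Mrpl39, Mrpl55, Mrps12 and Mrps14. Because the 2 comparisons share the 2-m libraries, this count is a description.

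**Figure D3:**
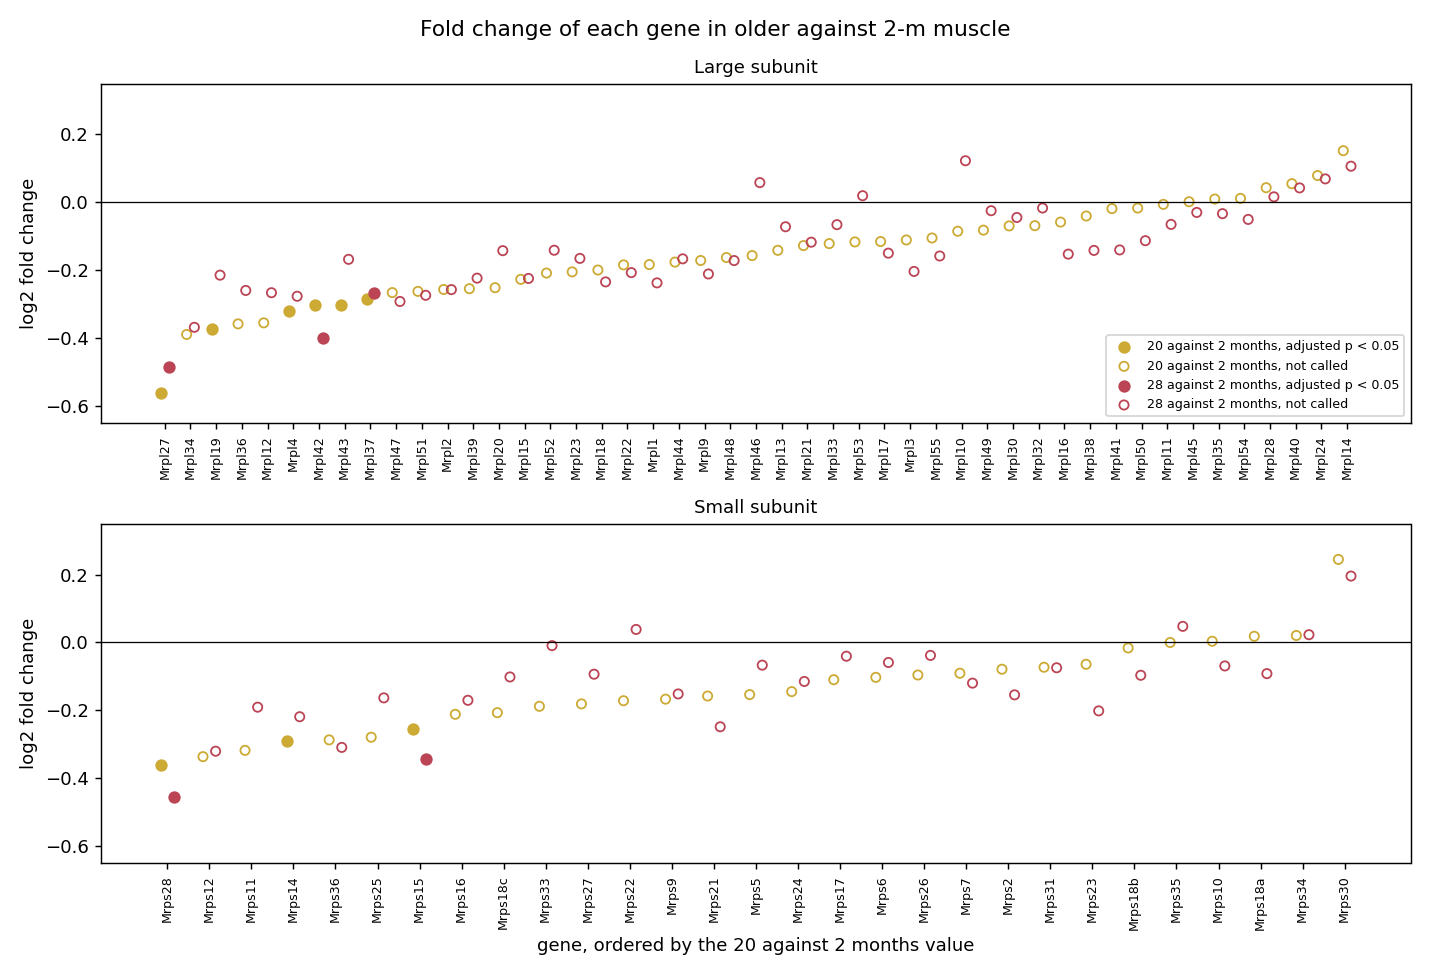
Log2 fold change of each of the 47 large-subunit (top) and 29 small-subunit (bottom) genes at 20 (yellow) and 28 (red) months against 2 months, ordered by the 20-month value, with filled points for an adjusted p under 0.05. In both panels most points lie below 0, all filled points are below 0, and Mrps30 is the highest.

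The third comparison asked whether the genes differed between 28-m and 20-m muscle. None of the 76 was called by limma, beside 0.212% of all genes called higher and 0.167% called lower, and at an unadjusted p under 0.05 there were 1 higher (1.32%, beside 5.15% of all genes) and 0 lower (beside 5.44%). DESeq2 and edgeR on the recovered reads also called 0. The median log2 fold change was 0.01 (large -0.0004, small 0.02), beside -0.003 for all genes, with 40 genes above and 36 below 0. The 28-m libraries lay above the 20-m libraries for 1 gene (beside 8.63% of all genes) and below them for 1 (beside 8.84%). The 95% intervals of single genes, which are not adjusted for the number of genes, reached 0.16 to 0.33 on the log2 scale to either side. A call needs an adjusted p under 0.05, so differences larger than these could also go uncalled. An example is Mrpl10 (0.21, adjusted p = 0.443), whose interval did not hold 0. The split depended on single libraries, since 17 of 76 were below 0 without 28-m replicate 3 and 52 without 28-m replicate 2.

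The largest differences between 28-m and 20-m muscle were those of Mrpl46, Mrps22 and Mrpl10 upward and of Mrps23, Mrpl41 and Mrps18a downward. Mrpl10, a protein at the base of the stalk, had counts of 1136, 1065 and 1203 in 20-m and 1391, 1210 and 1332 in 28-m muscle. It was the gene with no overlap upward, with a log2 fold change of 0.21 (95% interval 0.01 to 0.40, adjusted p = 0.443). Mrpl46 had 0.22 (adjusted p = 0.632) and Mrps22 had 0.21 (adjusted p = 0.64). Mrps23 had -0.14 (adjusted p = 0.584), Mrpl41 had -0.12 (adjusted p = 0.79) and Mrps18a had -0.11 (adjusted p = 0.793). Mrps18b was the gene with no overlap downward (-0.08, adjusted p = 0.793).

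Further members are described for their known roles. Mrpl12, the stalk protein that recruits translation factors, had counts of 3305, 4034 and 3145 in 2-m muscle, 2677, 2867 and 2608 in 20-m muscle, and 2653, 3500 and 2593 in 28-m muscle. Its 20-m libraries lay below all 2-m libraries, while replicate 2 of 28-m muscle was within the 2-m range. The log2 fold change was -0.36 (95% interval -0.62 to -0.09, adjusted p = 0.0626) at 20 months and -0.27 (adjusted p = 0.171) at 28 months, neither of which passed.

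Around the exit of the tunnel, Mrpl23 had log2 fold changes of -0.21 and -0.17 at 20 and 28 months (adjusted p = 0.152 and 0.271). Mrpl45, which anchors the ribosome to the inner membrane, had 0.002 and -0.03 (adjusted p = 0.994 and 0.877). Mrpl44, a protein related to RNase III, had -0.18 and -0.17 (adjusted p = 0.232 and 0.281). Mrpl3, a core protein with a bacterial homologue, had -0.11 and -0.20 (adjusted p = 0.478 and 0.202), and Mrpl41 had -0.02 and -0.14 (adjusted p = 0.938 and 0.516). These large-subunit genes thus held both values near 0 and values near the group's median, and none of them passed.

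In the small subunit, Mrps12, a protein of the decoding centre, had counts of 729, 708 and 640 in 2-m muscle, 555, 584 and 505 in 20-m muscle, and 512, 616 and 536 in 28-m muscle. Its older libraries were all below the young ones. The log2 fold changes were -0.34 (adjusted p = 0.0568) and -0.32 (adjusted p = 0.0763), just short of the threshold. Its head-to-head neighbour Sars2 had -0.32 and -0.19 (adjusted p = 0.183 and 0.47).

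Mrps5, whose worm homologue is known for its link to lifespan, had counts of 1050, 1320 and 1058 in 2-m muscle, 1042, 1034 and 987 in 20-m muscle, and 972, 1219 and 1076 in 28-m muscle. Its log2 fold changes were -0.15 and -0.07 (adjusted p = 0.377 and 0.742), and the 28-m libraries overlapped those of 2-m muscle. Mrps2 had -0.08 and -0.16 (adjusted p = 0.682 and 0.42), and Mrps7 had -0.09 and -0.12 (adjusted p = 0.516 and 0.407). Mutations of human MRPS16, MRPS22 and MRPS34 are known causes of OXPHOS deficiency. In mouse muscle Mrps16 had -0.21 and -0.17 (adjusted p = 0.326 and 0.463), Mrps22 had -0.17 and 0.04 (adjusted p = 0.423 and 0.888), and Mrps34 had 0.02 at both ages (adjusted p = 0.918 and 0.916).

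The 3 Mrps18 paralogues occupy different places, Mrps18b and Mrps18c in the small subunit and Mrps18a in the large. Mrps18c had -0.21 and -0.10 (adjusted p = 0.228 and 0.596), Mrps18b had -0.02 and -0.10 (adjusted p = 0.918 and 0.505), and Mrps18a had 0.02 and -0.09 (adjusted p = 0.936 and 0.663). Mrps30, the other protein named for the small subunit that sits in the large one, had the highest value of the 76 at both ages. Its counts were 952, 1219 and 1006 in 2-m muscle, 1336, 1336 and 1089 in 20-m muscle, and 1340, 1239 and 1057 in 28-m muscle, with overlap at both ages. The log2 fold changes were 0.24 (95% interval -0.03 to 0.52, adjusted p = 0.204) and 0.20 (adjusted p = 0.339). Mrps36, named as a ribosomal protein but part of a Krebs cycle enzyme, had -0.29 and -0.31 (adjusted p = 0.154 and 0.143).

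The pair that shares a start region was then compared. Mrps11 had counts of 464, 620 and 411 in 2-m muscle, 400, 393 and 387 in 20-m muscle, and 442, 475 and 377 in 28-m muscle. Mrpl46 had 551, 469 and 578 in 2-m muscle, 517, 395 and 526 in 20-m muscle, and 503, 609 and 549 in 28-m muscle. At 20 months the log2 fold changes were -0.32 for Mrps11 and -0.16 for Mrpl46, and at 28 months they were -0.19 and 0.06, none of which passed (adjusted p from 0.172 to 0.824). In the young libraries replicate 2 was highest for Mrps11 and lowest for Mrpl46.

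The rest of the mitochondrial translation system was described with gene lists. For comparison, 9.42% of all genes tested were called higher and 7.13% lower at 20 months, and 7.53% and 6.24% at 28 months. The 6 mitoribosome proteins named otherwise, Dap3, Ptcd3, Chchd1, Aurkaip1, Gadd45gip1 and Ict1, had a median of -0.13 at 20 months and -0.06 at 28 months, with 0 called. Ict1, a ribosome rescue factor built into the large subunit, had the lowest values (-0.26 and -0.27, adjusted p = 0.0839 and 0.0906). Of 13 tested translation factors 0 were called at either age, with medians of -0.06 and -0.05. Of 19 tested genes of mitochondrial tRNA charging (17 aminoacyl-tRNA synthetases and the amidotransferase subunits Qrsl1 and Gatc) 0 were called, with medians of -0.14 and -0.06, and of 16 tested genes of mitochondrial transcription and RNA stability 0 were called, with medians of -0.01 and 0.01.

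Of 26 tested assembly and rRNA modification factors, 1 was called higher and 1 lower at 20 months and 1 lower at 28 months. Each is 3.85% of the list, under the 9.42% of all genes called higher and 7.13% called lower at 20 months, and the 6.24% called lower at 28 months. Mettl15, a methyltransferase of the small-subunit rRNA, rose from 127 ± 33.0 to 199.5 ± 11.02 (log2 fold change 0.68, adjusted p = 0.0425). Ftsj2, a methyltransferase of the large-subunit rRNA, fell from 294 ± 19.1 to 217 ± 18.3 (-0.44, adjusted p = 0.0465). Rbfa, a small-subunit assembly factor, fell from 1133 ± 147 in 2-m to 838 ± 74.3 in 28-m muscle (-0.43, adjusted p = 0.0422). The list's medians were -0.13 at 20 months and 0.01 at 28 months.

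The nuclear-encoded OXPHOS subunits, which join the products of the mitoribosome, were mostly below 0 as well. Their median was -0.18 at 20 months, with 79 of 83 below 0, 5 called lower (6.02%, under the 7.13% of all genes) and 0 higher (beside 9.42%). At 28 months the median was -0.17, with 75 below 0 and 1 called lower (1.20%, beside 6.24% of all genes). Ndufc1, a complex I subunit, was called at both ages and went from 5103 ± 95.5 in young muscle to 3619 ± 57.5 at 20 months and 3693 ± 362 at 28 months (-0.50 and -0.47, adjusted p = 0.00135 and 0.00196). The others called at 20 months were Ndufa1 (-0.39), Cox8a (-0.39), Ndufb2 (-0.37) and Ndufc2 (-0.33).

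The cytosolic ribosomal proteins were counted in the same way. Their median was -0.08 at 20 months, with 61 of 81 below 0 and 4 called lower (4.94%, beside 7.13%). It was -0.01 at 28 months, with 43 below 0 and 1 called higher (1.23%, beside 7.53% of all genes). The 4 were Rpl22l1 (-0.55), Rpl7l1 (-0.39), Rpl37a (-0.35) and Rpl3l (-0.28), and Rpl3, the widely expressed paralogue of the muscle gene Rpl3l, was called higher at 28 months (0.62, adjusted p = 0.00125). Between 28-m and 20-m muscle 70 of 81 were above 0, with a median of 0.08. Rpl3 was the 1 gene called (0.57, adjusted p = 0.0256), 1.23% beside 0.212% of all genes called higher. The differences between lists were not tested.

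**Figure D4:**
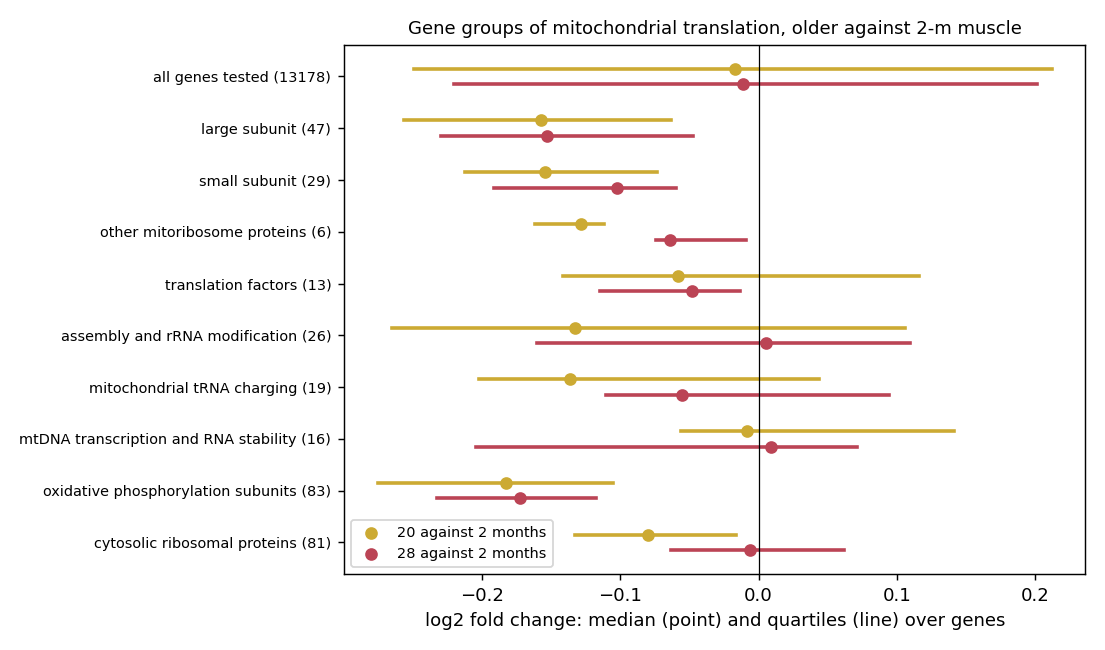
Median (point) and quartiles (line) of the log2 fold change over the tested genes of each list, with their number in parentheses, at 20 (yellow) and 28 (red) months against 2 months. The subunits of the mitoribosome and the OXPHOS subunits have medians between -0.10 and -0.18 at both ages, while the median of all genes tested is near 0.

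DNA methylation at the starts was read from the MBD-seq table, in which a value is the normalized count of captured fragments in a 500-bp bin. Each age is 1 pool per tissue, so there is no replicate and no test. In the bin over the start, the median over the 76 genes in muscle of 2, 20 and 28 months was 0.91, 0 and 4.46, beside 0.91, 0 and 3.82 for all tested protein-coding genes. At most 5 normalized counts were found in muscle at 71 of 76 starts (93.4%) at the youngest age, at 72 (94.7%) at 20 months and at 39 (51.3%) at 28 months, beside 80.8%, 81.0% and 60.8% of all tested protein-coding genes, where a bin that is not listed counts as 0. T cells had a median of 0 at all 3 ages. The highest values, picked after all had been seen, were those of Mrps23 and Mrpl20. Mrpl20 had 20.0, 35.4 and 27.4 in muscle at 2, 20 and 28 months. For Mrps23 the bin over the outermost annotated start had 25.5, 57.3 and 20.4, but the other annotated start, 10282 bp downstream and the one its promoter window covers, had 0, 0 and 0.64. The outermost start was used for every gene, and it differed from that of the promoter window for 4 of 67 genes (Mrpl48, Mrps10, Mrps16 and Mrps23). The 5 genes called lower at both ages had at most 2.73 in the bin over the outermost start at 2 and 20 months. At 28 months Mrpl37, Mrps15 and Mrps28 lay above 5, and Mrpl27 and Mrpl42 below. Mrpl27 had 0, 0 and 1.27, Mrpl37 0.91, 0 and 5.10, Mrpl42 1.82, 0 and 3.19, Mrps15 2.73, 0.84 and 6.37, and Mrps28 0.91, 0 and 5.10, in muscle at 2, 20 and 28 months. The 28-m values were the highest of the 3 for each of these 5 genes, as was the median of all genes.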

How the data were processed

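Muscle RNA of 9 female mice (3 each at 2, 20 and 28 months) was sequenced as 1 library per mouse. The authors trimmed reads with Trim Galore, aligned them to mm10 with Hisat2 (the submitters' notes name TopHat), counted them per refSeq gene with htseq-count (intersection-strict) and divided them by DESeq2 size factors. The deposited signal values are these normalized counts, and for MBD-seq the normalized counts per 500-bp bin after Bowtie2 and bedtools. The MBD-seq muscle columns name tissue and age but not which of 2 captures they hold.

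All values (100%) were whole multiples of 1 step per library within 0.01, so reads were recovered, at 20203800 to 71115200 per library. The 5 htseq-count summary rows, which hold 37.9% to 47.7% of the column totals, were left out. The 9 libraries were fitted with limma 3.58.1 (limma-trend, R 4.3.3) on log2(normalized count + 1), with age as the only term, over the 13178 genes with a mean of at least 10, and p was adjusted by the Benjamini-Hochberg method over all of them. Fold changes are on that log2 scale. A call is an adjusted p under 0.05. The fit was tested on simulated data. p-values set a difference against the spread among mice of the same age, pooled over the 3 ages and moderated over all genes tested. With age as the only term, this spread also holds any difference of the libraries numbered 3.

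Genes named are, by rule, those called, the extremes of level, the largest changes between 28 and 20 months, members with known roles, and called genes of the lists. Genes and lists were chosen with earlier results of these data known. Positions and promoters are from RefSeq (GRCm38.p6), which is mm10. All 76 genes had 1 position. No promoter was at hand for Mrpl13, Mrpl15, Mrpl19, Mrpl38, Mrpl4, Mrpl54, Mrps28, Mrps34 and Mrps35. Alternatives were other pseudocounts, filters and scalings, edgeR 4.0.16, DESeq2 1.42.0, a batch or replicate term, and leaving out libraries.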

Additional observations from a re-analysis of the deposited data

How the results depend on the processing

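The medians of the 76 genes in each comparison moved by less than the spread between replicates under every alternative run. Left out one at a time, libraries gave medians from -0.18 to -0.12 at 20 months, -0.19 to -0.08 at 28 months and -0.05 to 0.04 between 28 and 20 months. The counts of genes called lower at 20 and 28 months (9 and 5) were less stable. They were 0 and 0 with libraries rescaled to the same sum (beside 1.76% and 1.51% of all genes), 1 and 1 without all 3 libraries numbered 3 (1.32%, beside 3.16% and 2.37%), 15 and 10 with a batch term for those libraries (19.7% and 13.2%, beside 9.18% and 8.48%), and 3 at 28 months with only the 2 groups compared (3.95%, beside 4.55%). Leaving out 1 library gave 1 to 10 calls at 20 months (1.32% to 13.2%, beside 3.55% to 7.27% of all genes). At 28 months it gave 2 to 11 (2.63% to 14.5%, beside 3.35% to 6.37%). The share lay above or below that of all genes depending on the library. Other pseudocounts, filters and normalizations, edgeR (10 and 5) and DESeq2 (12 and 6) stayed within 1.5 times. By edgeR the shares were 13.2% and 6.58%, beside 7.36% and 6.17% of all genes. By DESeq2 they were 15.8% and 7.89%, beside 8.55% and 7.43%. No alternative called a gene higher, or any gene between 28 and 20 months. The cause of these shifts was not tested. The labels do not say that replicate numbers pair the samples. Same-numbered libraries of different ages correlated in their deviations by over 0.1 only for number 3, and there in every pair (r = 0.11 to 0.16). The main fit has no term for what these libraries share. With the replicate block there were 15 and 13 calls (19.7% and 17.1%, beside 9.90% and 8.81% of all genes).

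The difference of the subunit medians (large minus small), -0.003, -0.05 and -0.02 in the 3 comparisons, moved to -0.00737 at 28 months without the libraries numbered 3 and to -0.0445 between 28 and 20 months with genes sorted by structure. Without single libraries it ran from -0.0450 to 0.0176 at 20 months, -0.0709 to -0.00423 at 28 months and -0.0428 to 0.0133 between 28 and 20 months. The log2 of the large over small level per length, 1.08 on average, was 0.18 from means of log2 levels and 1.34 by structure. The MBD-seq medians at 2, 20 and 28 months were 8.28, 8.34 and 10.3 when bins within 1 kb of the start were used, and 0.91, 0 and 4.14 at the starts of the promoter windows, an alternative chosen after seeing the data. Over all alternatives, the 9 genes called in the main fit were followed at 20 and 28 months. Their results kept their side of the threshold in 303 cases, lost a call in 87 and gained one in 6, and none reversed its sign. The 303 include results that were not called in the main fit and stayed so. Single results of the other genes were not followed in this way.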
